A study of Mus musculus with 6 samples.

Results

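Cytosine methylation is written by DNA methyltransferases, copied to the new strand at each round of replication, and removed either passively by lack of copying or actively through oxidation by TET enzymes. The 9 genes analyzed here were chosen by name as the core of this machinery: Dnmt1, Uhrf1, Uhrf2 and Hells on the side of maintenance, Dnmt3a and Dnmt3b for de novo methylation, and Tet1, Tet2 and Tet3 for oxidation. They were read out of the 35976 genes listed in each RNA-seq library, and all 9 passed the filter on low counts that left 17348 genes for testing. In myogenic cells DNMT3A is known for a role in satellite cell proliferation, and TET2 for its part in the demethylation of muscle gene enhancers during differentiation. Dnmt1 and Uhrf1 are known as genes whose transcription peaks around S phase.

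The libraries came from satellite cells (SCs), the Pax7-expressing stem cells of skeletal muscle, and 3 were from NF-YAcKO and 3 from NF-YAfl/fl mice. Both groups carried floxed alleles of Nfya, which encodes the DNA-binding subunit of the CCAAT-binding trimer NF-Y, and both received tamoxifen (20 mg/ml in the labels) at an age given by the labels as 5 to 7 weeks (the Methods give a slightly older range). NF-YAcKO mice also carried the Pax7-CreERT2 driver, so that deletion was limited to cells that expressed Pax7 when tamoxifen was given. NF-YAfl/fl mice carried no Cre and were the control, so Cre itself differed between the groups together with the deletion. SCs were enriched by magnetic depletion of other cell types and grown in growth medium before RNA was taken. The labels number the replicates without tying them to single mice, so p-values measure the spread between these libraries.

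Total expected counts were 31040863 to 41118984 per NF-YAcKO library and 26936230 to 33316730 per NF-YAfl/fl library. An Nfya entry that the authors had added for the deleted allele held 22.3, 26.4 and 34.2% of the Nfya counts in NF-YAcKO replicates 1, 2 and 3 and 0 counts in all 3 NF-YAfl/fl libraries, whereas the summed level of Nfya was 27.5 ± 0.874 against 28.7 ± 7.20 CPM (counts relative to the normalized library total, SD, n = 3). Without that entry it was 20.2 ± 1.87 against 28.3 ± 6.64 CPM (exact permutation p = 0.1, the smallest possible). The NF-YAfl/fl libraries varied more among themselves (biological coefficient of variation 0.310, compared with 0.105 in NF-YAcKO). The libraries also differed in sex-linked RNA: Xist, which is transcribed from the inactive X chromosome, stood at 836 to 852 CPM in NF-YAcKO and at most 0.475 CPM in NF-YAfl/fl, while the Y-linked Ddx3y stood at 80.9 to 88.6 CPM in NF-YAfl/fl and at most 0.0957 CPM in NF-YAcKO. The Methods describe male mice, so this pattern goes against the description of the NF-YAcKO animals, and genotype and sex-linked expression cannot be told apart in any result below. None of the 9 genes lies on the X or Y chromosome.

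RNA of cell type markers, taken from a list for each cell type, differed as well. All 11 markers of differentiating muscle fell, and their summed level was 623 to 1407 CPM in NF-YAcKO against 43851 to 53125 CPM in NF-YAfl/fl. Of 12 macrophage markers 11 rose, with sums of 147 to 290 against 5.90 to 16.1 CPM and none at 0 in all libraries. Of 10 satellite cell and myoblast markers 8 could be tested, 3 rose and 3 fell, and Pax7 itself was present in every library at 145 to 201 against 73.5 to 105 CPM, while Calcr and Chrdl2 did not exceed 11 counts. Schwann markers (5 of 5 rose, sums of 23.4 to 30.7 against 8.89 to 13.0 CPM), endothelial markers (2 of 5 rose, 13.1 to 18.0 against 4.14 to 8.06 CPM), fibro-adipogenic markers (2 of 6 rose, 785 to 942 against 717 to 1424 CPM) and pericyte markers (2 of 5 fell, 879 to 1019 against 1871 to 2243 CPM) completed the lists. The part of these cell types in the results on methylation genes was not tested, and in bulk RNA a smaller number of cells of one type and less RNA per cell cannot be told apart.

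Relative to the library total, the NF-YAcKO libraries had more RNA for the genes of maintenance and less for the oxidation genes Tet2 and Tet3. Dnmt1, Uhrf1 and Hells were each more than doubled, Uhrf2 and Dnmt3b rose by smaller factors, Tet2 was more than halved and Tet3 fell, whereas Dnmt3a and Tet1 did not pass the test. In edgeR's quasi-likelihood test over all genes, with a false discovery rate (FDR) under 0.05 required to call a rise or a fall, 5 of 9 genes rose and 2 fell, where 19.7% of all genes tested rose and 18.9% fell. The study's Methods use stricter thresholds, an FDR under 0.01 together with a change of more than 1 log2 unit. With these, 3 were called higher (Uhrf1, Hells and Dnmt1; 4.65% of all genes) and 1 lower (Tet2; 7.67% of all genes). The genotypes did not overlap for any of the 9 on the CPM scale, 5 being higher and 4 lower, where 29.1% and 26.2% of all genes did so (55.3% in either direction). Over the 9 genes the log2 fold change had a median of 0.41, compared with -0.016 over all genes tested.

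Fewer calls were made without NF-YAcKO replicate 1, 2 or 3 or NF-YAfl/fl replicate 1, among the 9 genes as among all genes. Without NF-YAfl/fl replicate 2 or 3 the 9 genes again gave 5 risen and 2 fallen. In these fits 3564 and 4456 of all genes rose and 3467 and 4088 fell, more than with all libraries. The number of the 9 risen was 3 without NF-YAcKO replicate 1 or without NF-YAcKO replicate 2, fits in which 1930 and 1739 of all genes rose in place of 3418. The number fallen was 1 without NF-YAcKO replicate 2 or 3, with 1981 and 2247 of all genes fallen in place of 3285. Under the stricter thresholds the number called higher was 1 without NF-YAcKO replicate 1, 0 without replicate 2, 1 without replicate 3 and 1 without NF-YAfl/fl replicate 1, and the number called lower was 0 without NF-YAcKO replicate 2. Over all genes, 283, 177, 279 and 298 in place of 806 were called higher in these 4 fits, and 523 in place of 1331 were called lower without NF-YAcKO replicate 2. The log2 fold changes of Dnmt1, Hells and Tet2 moved little without NF-YAcKO replicate 1, 2 or 3: Dnmt1 was at 1.15, 1.10 and 1.14, Hells at 1.25, 1.18 and 1.26, and Tet2 at -1.22, -1.24 and -1.24. They lay wider apart without NF-YAfl/fl replicate 1, 2 or 3. Dnmt1 was then at 1.09, 1.42 and 1.003, and Hells at 1.19, 1.57 and 1.06. Tet2 was at -1.33, -1.23 and -1.06 in these fits. Dnmt1, Uhrf1, Hells and Tet2 kept an FDR under 0.05 without each of the 6 libraries.

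**Figure D1:**
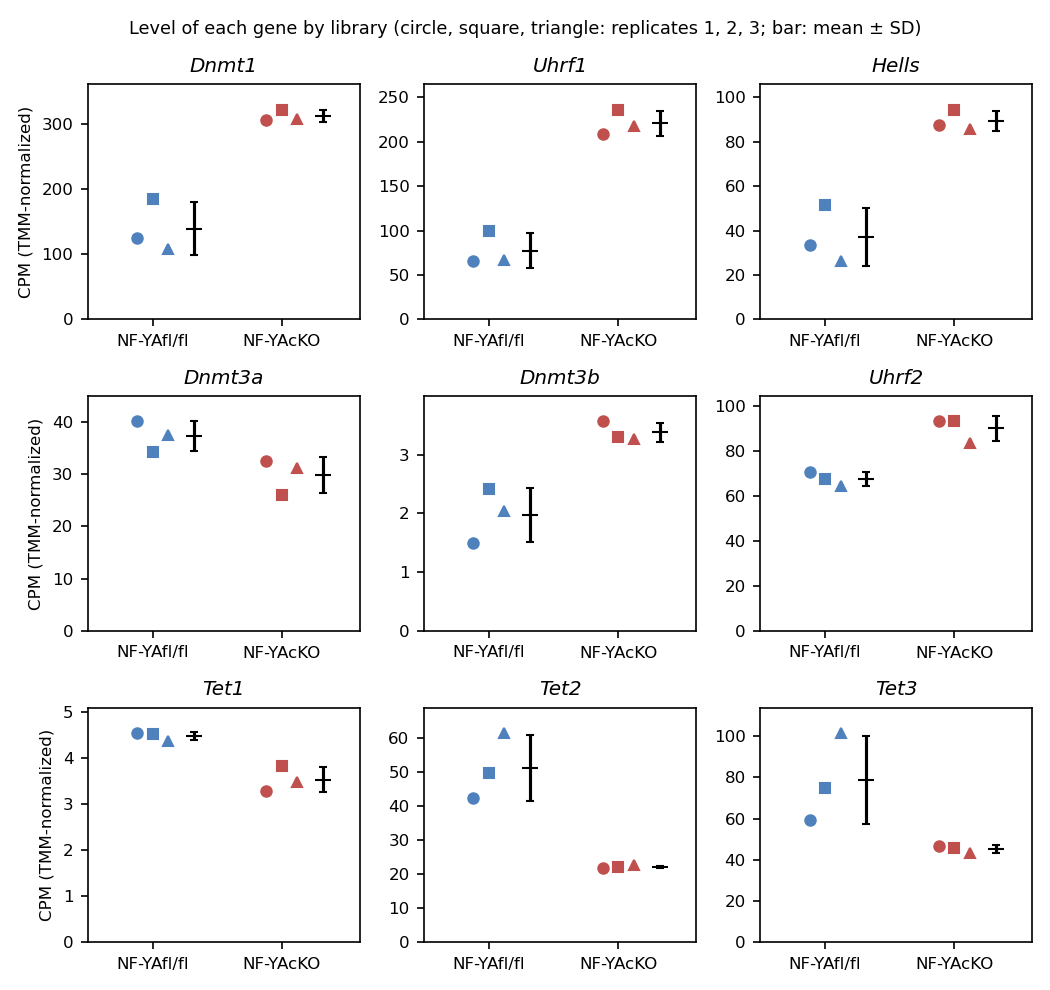
CPM of each of the 9 genes (y axis, from 0, TMM-normalized) in the 3 NF-YAfl/fl and 3 NF-YAcKO libraries, with circles, squares and triangles for replicates 1, 2 and 3 and black bars for the mean ± SD. The NF-YAcKO libraries sit above all NF-YAfl/fl libraries for Dnmt1, Uhrf1, Hells, Dnmt3b and Uhrf2, and below them for Dnmt3a, Tet1, Tet2 and Tet3.

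Dnmt1 encodes the maintenance methyltransferase that restores methylation on hemimethylated DNA behind the replication fork, and it lies on chromosome 9 (chr9:20907206-20959888, minus strand, RefSeq on GRCm38.p6, the build of mm10). Dnmt1 was at 306, 322 and 308 CPM in NF-YAcKO replicates 1, 2 and 3 and at 125, 185 and 107 CPM in the NF-YAfl/fl replicates. All NF-YAcKO libraries were above the highest control, which was NF-YAfl/fl replicate 2. Dnmt1 rose 2.24-fold (log2 fold change 1.16, SE 0.20, edgeR FDR 0.00494).

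Uhrf1 encodes the reader of hemimethylated CpG that brings DNMT1 to replicating DNA (chr17:56303337-56323486, plus strand). Its level was 209, 236 and 218 CPM in NF-YAcKO and 65.3, 99.8 and 66.7 CPM in NF-YAfl/fl. Again replicate 2 was the highest of the control libraries, and the groups stayed far apart. The rise was 2.86-fold (log2 fold change 1.52, SE 0.18, edgeR FDR 0.00140), the greatest among the 9 genes.

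Hells encodes the chromatin remodeler LSH, which gives methyltransferases access to nucleosomal DNA (chr19:38930262-38970470, plus strand). Hells stood at 87.5, 94.5 and 85.9 CPM in NF-YAcKO and at 33.5, 51.7 and 26.2 CPM in NF-YAfl/fl. The order of the control libraries was that of Dnmt1, with replicate 2 highest and replicate 3 lowest. Hells rose 2.40-fold (log2 fold change 1.27, SE 0.24, edgeR FDR 0.00688), and its expected counts were not whole, so that some of its reads were divided with another gene.

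Uhrf2, the paralog of Uhrf1 (chr19:30030430-30093726, plus strand), binds modified cytosine but is not known to replace UHRF1 in maintenance. It was at 93.2, 93.3 and 83.7 CPM in NF-YAcKO and at 70.6, 67.7 and 64.6 CPM in NF-YAfl/fl. The groups were separate but close on this scale, and on the TPM scale (relative transcript abundance corrected for length) they overlapped. Uhrf2 rose 1.33-fold (log2 fold change 0.41, SE 0.09, edgeR FDR 0.0115). The FDR was 0.0813 without NF-YAcKO replicate 1 and 0.0842 without NF-YAcKO replicate 2.

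Dnmt3b, a de novo methyltransferase of early development (chr2:153649411-153687730, plus strand), was scarce, with 39 to 139 counts per library. Its level was 3.57, 3.31 and 3.27 CPM in NF-YAcKO against 1.49, 2.41 and 2.04 CPM in NF-YAfl/fl. The groups did not overlap in CPM but did in TPM. Dnmt3b rose 1.70-fold (log2 fold change 0.77, SE 0.23, edgeR FDR 0.0375). This call was lost without NF-YAcKO replicate 1, 2 or 3 (FDR 0.133, 0.121 and 0.107) and without NF-YAfl/fl replicate 1 (0.0840).

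Dnmt3a, the de novo methyltransferase of most adult tissues (chr12:3801559-3914443, plus strand), was at 32.5, 25.9 and 31.1 CPM in NF-YAcKO and at 40.1, 34.3 and 37.5 CPM in NF-YAfl/fl. The lowest control was above the highest NF-YAcKO library by a margin smaller than the spread within either group. The log2 fold change was -0.32 (SE 0.12, edgeR FDR 0.0787), which did not pass, and on the TPM scale the groups overlapped.

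Tet2 encodes a dioxygenase that oxidizes methylated cytosine (chr3:133463677-133545136, minus strand). In NF-YAcKO it was at 21.9, 22.0 and 22.5 CPM, with a coefficient of variation of 1.51%, and in NF-YAfl/fl at 42.2, 49.6 and 61.4 CPM (19.0%). The NF-YAcKO libraries were nearly alike and all below the lowest control, and replicate 3 was the highest control. Tet2 fell 2.30-fold (log2 fold change -1.20, SE 0.15, edgeR FDR 0.00155).

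Tet3, the TET enzyme of the oocyte and of many somatic tissues (chr6:83362373-83457208, minus strand), was at 46.8, 45.5 and 43.1 CPM in NF-YAcKO and at 59.4, 74.7 and 102 CPM in NF-YAfl/fl. The order of the control libraries was the one seen for Tet2. Tet3 fell 1.74-fold (log2 fold change -0.80, SE 0.19, edgeR FDR 0.0163). Without NF-YAcKO replicate 2 the FDR was 0.0520 and without replicate 3 it was 0.0529. NF-YAfl/fl replicate 3 was the highest library for Tet2 and Tet3 in CPM (in TPM replicate 2 was higher for both). Among the controls it also had the highest CPM of Myod1 (1146 against 295 and 361 CPM) and Myog (1450 against 584 and 965 CPM). The summed markers of differentiating muscle, in contrast, were at 46870 CPM in it, between replicates 2 and 1 (43851 and 53125 CPM). Of that list Mymk was also highest in replicate 3, Myh3, Tnnt3, Tnnc2, Ckm and Mylpf were lowest, and the others lay between. The part of these marker levels in the difference was not tested. Without NF-YAfl/fl replicate 3 the log2 fold change of Tet3 was -0.58 (FDR 0.00532).

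Tet1, best known from embryonic stem cells (chr10:62804570-62887469, minus strand), had 103 to 159 counts per library. It was at 3.28, 3.84 and 3.48 CPM in NF-YAcKO and at 4.55, 4.52 and 4.38 CPM in NF-YAfl/fl. All control libraries were above all NF-YAcKO libraries. The log2 fold change was -0.34 (SE 0.17, edgeR FDR 0.144), which did not pass, and the counts of Tet1 were not whole.

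**Figure D2:**
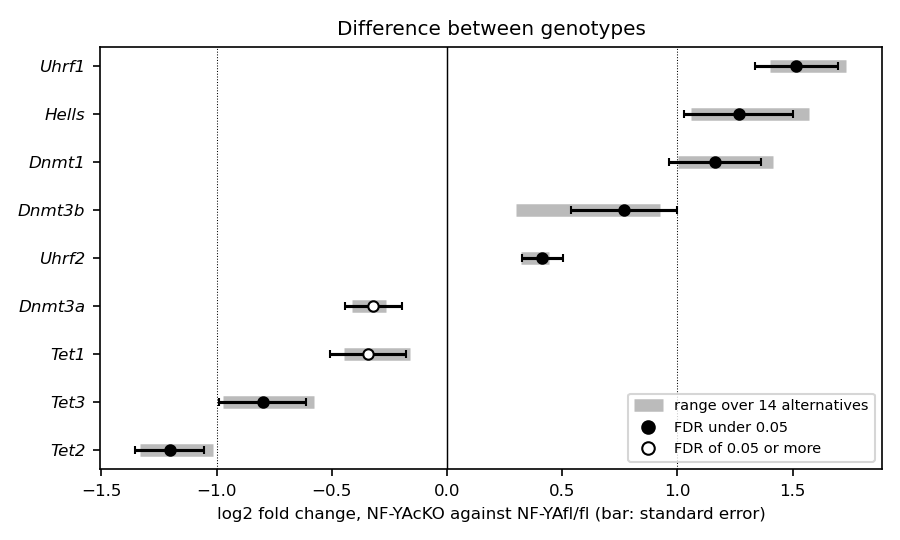
Log2 fold change of the 9 genes (x axis, NF-YAcKO against NF-YAfl/fl) with its standard error, over a grey bar for the range under 14 alternative settings, filled where the FDR was under 0.05, with dotted lines at -1 and 1. Uhrf1 (1.52), Hells (1.27) and Dnmt1 (1.16) lie beyond 1, Tet2 (-1.20) lies beyond -1, and no grey bar crosses 0.

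To compare levels between genes, TPM was used within libraries, since it is per length. In NF-YAcKO the order of mean TPM was Uhrf1 (70.1 ± 1.71, SD, n = 3), Dnmt1 (63.8 ± 3.63), Uhrf2 (28.7 ± 2.52), Hells (28.3 ± 1.26), Tet3 (4.28 ± 0.403), Dnmt3a (3.34 ± 0.650), Tet2 (2.61 ± 0.228), Dnmt3b (0.923 ± 0.110) and Tet1 (0.323 ± 0.0115). The ranges of Uhrf2 and Hells overlapped and their order changed between libraries, and the ranges of Dnmt3a and Tet2 overlapped although Dnmt3a was above Tet2 in each library. In NF-YAfl/fl the order was Dnmt1 (31.5 ± 15.1), Uhrf1 (27.1 ± 12.0), Uhrf2 (23.1 ± 4.80), Hells (13.5 ± 7.23), Tet3 (7.84 ± 1.64), Tet2 (6.35 ± 1.14), Dnmt3a (4.44 ± 0.648), Dnmt3b (0.570 ± 0.219) and Tet1 (0.483 ± 0.110). Here neighbours overlapped from Dnmt1 down to Tet2, and also for Dnmt3b and Tet1, whereas Tet2 stayed above Dnmt3a and Dnmt3a above Dnmt3b. Dnmt1 was above Uhrf1 in each control library and Uhrf1 above Dnmt1 in each NF-YAcKO library, and Tet2 and Dnmt3a also exchanged places.

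Within each family the makeup differed between genotypes, and for every share the groups did not overlap (two-sided exact permutation test over libraries, p = 0.1, the smallest that 3 against 3 libraries allow). Uhrf1 made up 69.2, 71.6 and 72.2% of the UHRF TPM in NF-YAcKO replicates 1, 2 and 3 and 48.2, 59.7 and 50.8% in NF-YAfl/fl. The pair was thus near parity in NF-YAfl/fl replicates 1 and 3, with more Uhrf1 in replicate 2, and had a clear majority of Uhrf1 in NF-YAcKO. Dnmt3b was 21.1, 23.7 and 20.7% of the DNMT3 TPM in NF-YAcKO and 8.04, 14.3 and 11.5% in NF-YAfl/fl. Dnmt3a remained the main DNMT3 transcript in all 6 libraries. The difference for Dnmt3b was 10.5 percentage points from TPM and 5.13 points when shares were taken from CPM, which ignores length.

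Tet2 made up 35.4, 35.7 and 37.6% of the TET TPM in NF-YAcKO and 44.9, 43.7 and 41.6% in NF-YAfl/fl, and Tet3 was the largest component in every library (59.3% ± 1.37 against 53.3% ± 2.19, SD, n = 3). Tet1 was 4.51% ± 0.509 against 3.32% ± 0.548. Tet2 therefore lost share to both paralogs in NF-YAcKO. The summed TET TPM was 7.22 ± 0.593 in NF-YAcKO and 14.7 ± 2.81 in NF-YAfl/fl, and the ratio of Dnmt1 TPM to summed TET TPM was 8.58, 9.06 and 8.92 against 2.31, 2.82 and 1.26 (exact p = 0.1 for both). The ratio did not overlap between the genotypes. By contrast the ratio of Hells to Dnmt1 TPM was 0.443 ± 0.0143 against 0.420 ± 0.0305 and overlapped (exact p = 0.4), whereas that of Dnmt1 to Uhrf1 was 0.909 ± 0.0327 against 1.15 ± 0.0994 and did not (exact p = 0.1).

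**Figure D3:**
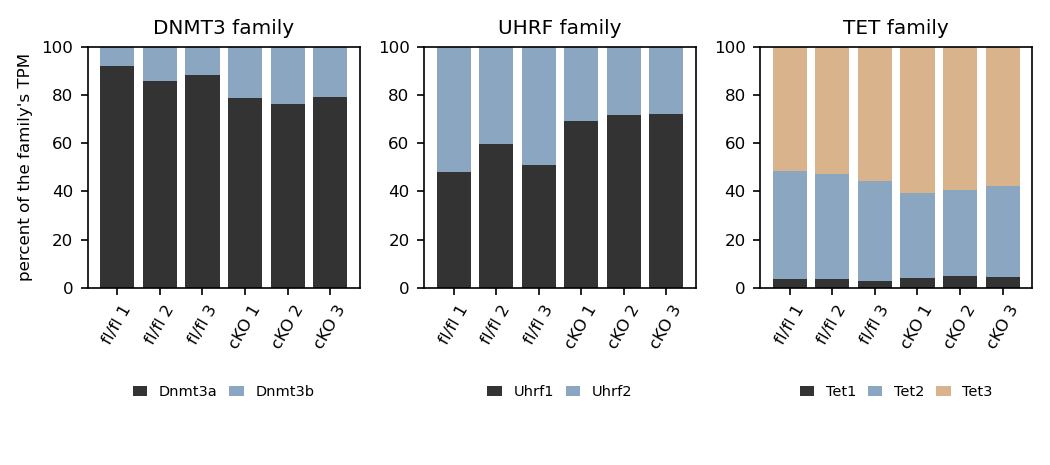
Percent of the summed TPM of each family (y axis, 0 to 100) held by each paralog in the 6 libraries (x axis; fl/fl, NF-YAfl/fl; cKO, NF-YAcKO), as stacked bars for the DNMT3, UHRF and TET families. Uhrf1 holds 48.2 to 59.7% of its family in NF-YAfl/fl and 69.2 to 72.2% in NF-YAcKO, Dnmt3b rises from at most 14.3% to at least 20.7%, and Tet2 drops from at least 41.6% to at most 37.6%.

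Maintenance of methylation works at the replication fork, so Dnmt1, Uhrf1 and Hells were set beside a list of S-phase genes. Of the 21 S-phase genes 20 rose and none fell (median log2 fold change 1.38), among them the MCM helicase genes Mcm2 to Mcm7 (log2 fold changes of 1.16 to 1.63) and Rrm2 of ribonucleotide reductase (1.71), and the thymidylate synthase gene Tyms did not pass (0.15, FDR 0.406). Their summed level was 2723, 2914 and 2774 CPM in NF-YAcKO replicates 1, 2 and 3 and 1088, 1451 and 990 CPM in NF-YAfl/fl. Replicate 2 was again the highest control, as for Dnmt1, Uhrf1 and Hells.

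For the direct comparison, the mean log2(TPM + 1) of 18 S-phase genes (without Pcna, Lig1 and Ung, which stand in other lists) was subtracted in each library. The mean of Dnmt1, Uhrf1 and Hells exceeded it by 0.26 ± 0.021 in NF-YAcKO and by 0.20 ± 0.104 in NF-YAfl/fl (log2 units, SD, n = 3), a difference of 0.06 (exact permutation p = 0.4), and the groups overlapped. Taken singly, Dnmt1 differed by -0.06 (exact p = 0.5) and Hells by -0.02 (exact p = 0.9), both with overlap. Uhrf1 was the exception, at 0.67, 0.77 and 0.74 in NF-YAcKO against 0.30, 0.53 and 0.56 in NF-YAfl/fl, a difference of 0.26 without overlap (exact p = 0.1, the smallest possible). This sets Uhrf1 against the mean of the list only. Single S-phase genes had log2 fold changes from 0.15 (Tyms) to 1.71 (Rrm2), with a median of 1.38. The value of Uhrf1 (1.52) lay within that spread. The share of the rise in Dnmt1, Uhrf1 and Hells that goes with the number of cells in S phase was not tested, since no cell-level data enter these libraries.

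**Figure D4:**
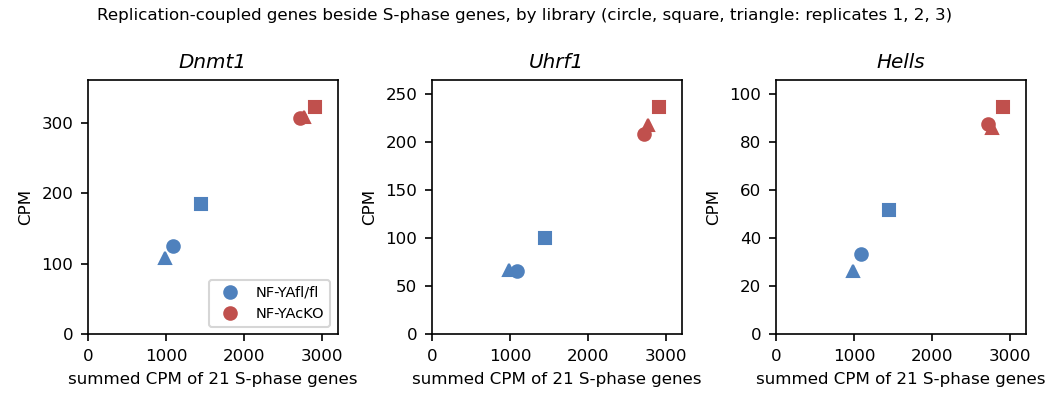
CPM of Dnmt1, Uhrf1 and Hells (y axes, from 0) against the summed CPM of 21 S-phase genes (x axis) in the 6 libraries, blue for NF-YAfl/fl and red for NF-YAcKO, with circles, squares and triangles for replicates 1, 2 and 3. In each panel the controls lie at 990 to 1451 CPM of S-phase RNA and the NF-YAcKO libraries at 2723 to 2914, and NF-YAfl/fl replicate 2 (square) is the control closest to them.

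The other genes of the pathway were taken from lists, to be read beside the 19.7% of all genes tested that rose and the 18.9% that fell. Among partners of the maintenance and de novo enzymes, 7 of 10 tested genes rose and 1 fell (median log2 fold change 0.78). The greatest rises were those of Cdca7, the factor that recruits HELLS to chromatin (44.2 to 50.9 against 14.4 to 15.4 CPM, log2 fold change 1.67, FDR 0.000138), Pclaf, the PCNA-bound protein that serves DNMT1 recruitment (listed under its older symbol 2810417H13Rik; 1.66, FDR 0.00816), Lig1, the DNA ligase that UHRF1 reads (1.46, FDR 0.00293), and Pcna, the sliding clamp that tethers DNMT1 (1.43, FDR 0.000429). These 4 passed the stricter thresholds, and Pcna and Lig1 are also S-phase genes. Cdca7l (0.88), the corepressor gene Trim28 (0.67) and Usp7, the deubiquitinase that stabilizes DNMT1 (0.48), also rose. Zfp57, which guards methylation at imprinted loci, fell (log2 fold change -0.50, FDR 0.0498). Zbtb24 and Dnmt3l did not pass, and Dppa3, an inhibitor of UHRF1, was at 0 counts in all 6 libraries.

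Of 9 genes from families with readers of methylated CpG, not every member of which is such a reader, 1 rose and 2 fell (median -0.25). Mbd2 rose by 0.51 on the log2 scale (63.9 to 67.3 against 43.5 to 47.8 CPM, FDR 0.00458), while Mbd5 fell by 0.78 (FDR 0.00270) and Zbtb4 fell by 1.09 (FDR 0.00117). Of 6 proteins with a CXXC domain, which binds unmethylated CpG, only Fbxl19 passed and rose (0.61, FDR 0.00953), and the median was 0.09.

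After oxidation or deamination, modified cytosine is removed by base excision repair. The list around this step also held Apobec and Gadd45 genes, and of its 15 tested genes 6 rose and 4 fell (median 0.36). Ung, the uracil glycosylase, rose most (9.53 to 11.2 against 2.95 to 4.61 CPM, log2 fold change 1.55, FDR 0.00226), followed by Neil3 (FDR 0.0395), Apobec1 (0.93), the endonuclease gene Apex1 (0.78), Parp1 (0.71) and Xrcc1 (0.50), and Ung is also in the S-phase list. Tdg, the glycosylase that acts on the products of TET oxidation, did not pass: it was at 58.0 to 62.3 CPM in NF-YAcKO and at 37.3, 39.2 and 65.0 CPM in NF-YAfl/fl (FDR 0.227), the last value being that of replicate 3. Mbd4 and Smug1 did not pass either. Gadd45a (-0.80, FDR 0.0319), Gadd45g (-0.73, FDR 0.00885) and Neil1 (-0.60, FDR 0.0468) fell, and Apobec2, known as a gene of differentiated muscle rather than as a repair gene, fell most (1.40 to 2.82 against 19.1 to 40.4 CPM, -3.69, FDR 0.000811).

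The supply of cofactors was mixed. Among 5 genes around TET activity (median -0.04), Idh2, which makes 2-oxoglutarate in mitochondria, rose (107 to 119 against 62.7 to 80.6 CPM, log2 fold change 0.66, FDR 0.00528), Idh1 overlapped between the genotypes (-0.04, FDR 0.943), and Ogt, the glycosyltransferase bound by TET proteins, fell (99.7 to 117 against 185 to 282 CPM, -1.09, FDR 0.00313). Ogt lies on the X chromosome, which the sex-linked difference between the groups touches directly. The list for the S-adenosylmethionine cycle, which makes the methyl donor, also held folate-cycle genes such as Shmt1, Shmt2 and Mthfd1. Of its 10 tested genes 5 rose and 2 fell (median 0.39). Shmt1 (log2 fold change 1.53, FDR 0.000161) and Ahcy, which clears the inhibitory product of methyl transfer (279 to 327 against 131 to 141 CPM, 1.15, FDR 0.000420), rose past the stricter thresholds, and Mthfd1 (0.99), Shmt2 (0.98) and Mtrr (0.55) rose too. Mat2a, which makes the donor itself, fell slightly (-0.38, FDR 0.0292).

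**Figure D5:**
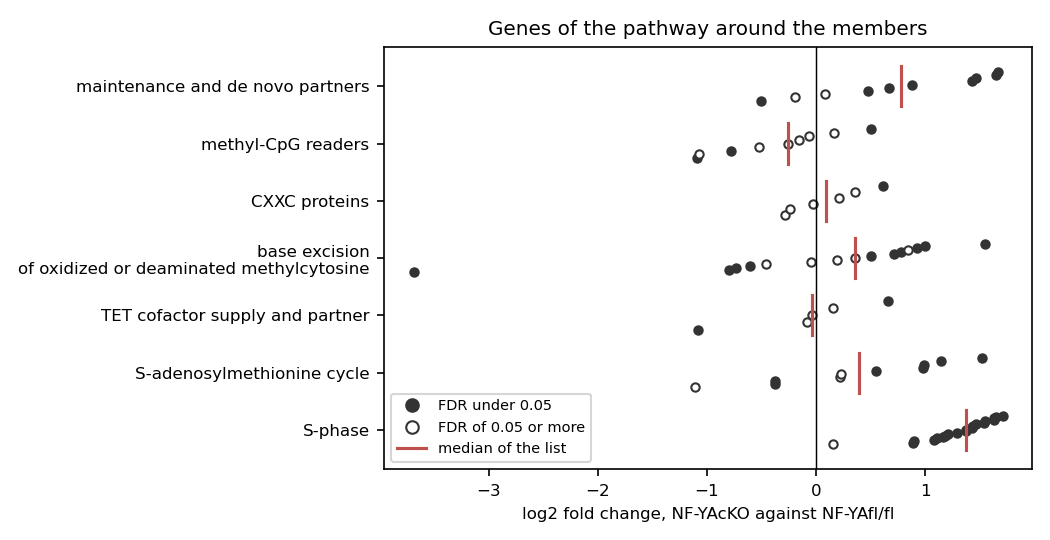
Log2 fold change (x axis, NF-YAcKO against NF-YAfl/fl) of each tested gene of 7 pathway lists, filled where the FDR was under 0.05, with a red line at the median of each list. The S-phase list (median 1.38, 20 of 21 risen) and the maintenance partners (median 0.78, 7 of 10 risen) lie mostly to the right of 0. The list labelled methyl-CpG readers has a median of -0.25, and the point at -3.69 is Apobec2.

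Germline genes whose promoters are known to need methylation for silencing were checked as a list of 11. Only Taf7l had enough counts for the test and did not pass (0.861 to 1.18 against 0.535 to 2.37 CPM, log2 fold change -0.27, FDR 0.716). The other 10, among them Dazl, Ddx4, Mael and Sycp3, did not exceed 14 counts in any library of either genotype, and Tex101 was at 0 throughout. A difference between the genotypes in these genes was not detectable at this depth, where 3 counts equal 0.0730 to 0.111 CPM. DNA methylation itself was not measured.

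The files list 62 transcripts for the 9 genes, of which 40 were tested, 6 rose and 2 fell, where 4.78% of all transcripts tested rose and 4.53% fell (9.31% in either direction). Dnmt1 RNA was assigned almost wholly to a pair of transcripts of 5370 and 5367 nt with the same annotated start, which both rose (log2 fold changes 1.34 and 1.02, FDR 0.0298 and 0.0329). Since they differ by 3 nt in length, their split is an estimate. Uhrf1 was divided between a transcript from an upstream start (3570 nt; 51.3, 56.1 and 58.8% of Uhrf1 TPM in NF-YAcKO and 46.2, 50.8 and 55.1% in NF-YAfl/fl) and those from a downstream start. The upstream form rose by 1.67 on the log2 scale (FDR 0.0127) and the 3426-nt downstream form by 1.35 (FDR 0.0279), and the shares of both overlapped between the genotypes. The minor 3402-nt downstream form held 7.66, 8.39 and 6.14% in NF-YAcKO and 16.8, 11.1 and 11.3% in NF-YAfl/fl, a lower share without overlap (exact permutation p = 0.1, the smallest possible), and its log2 fold change of 0.76 did not pass (FDR 0.130).

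The transcript makeup of Hells also differed. Its predicted 5255-nt transcript held 14.6, 13.3 and 15.4% of Hells TPM in NF-YAcKO and 3.89, 7.44 and 7.23% in NF-YAfl/fl, and its counts rose by 2.45 on the log2 scale (FDR 0.0254). The 4272-nt transcript held less in NF-YAcKO (14.7% ± 1.22 against 22.6% ± 1.79, SD, n = 3), while the main 3019-nt transcript held about the same share (70.9% ± 1.15 against 71.2% ± 0.224) and rose by 1.25 (FDR 0.0430). The transcripts that fell were the 9181-nt transcript of Tet2 (log2 fold change -0.83, FDR 0.0356), with 53.2 to 83.2% of the gene in each library, and the 10907-nt transcript of Tet3 (-0.89, FDR 0.0442).

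Of 36 transcripts that held at least 10% of their gene in any library, 21 were at 0 in another one, including all 6 of Dnmt3b. The 9689-nt transcript of Dnmt3a, for instance, held 30.4, 0 and 14.9% in NF-YAcKO and 0, 58.5 and 0% in NF-YAfl/fl, next to a 9735-nt transcript with the same exon number. The 6 rises, all of Dnmt1, Uhrf1 and Hells transcripts, became fewer in some fits with a library left out: the number risen was 1 without NF-YAcKO replicate 1, 0 without replicate 2, 0 without replicate 3 and 1 without NF-YAfl/fl replicate 1, and the number fallen was 1, 0, 0 and 1 in the same order, and 1 without NF-YAfl/fl replicate 2.

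Because NF-Y binds the CCAAT box, the RefSeq promoter windows of the 9 genes (GRCm38.p6, 250 bases before to 50 after each annotated start, 14 windows in all) were searched for CCAAT and its complement ATTGG. Of the 14 windows 5 held it, from 3 genes (Dnmt1, Uhrf1 and Tet3), against 37.4% of 32851 mouse promoter windows of the same length. No match stood in the windows of Dnmt3a, Dnmt3b, Uhrf2, Hells, Tet1 or Tet2, nor in the Dnmt1 window at the start of its 5370-nt and 5367-nt transcripts. The 14082-nt Tet1 transcript, with 44.3 to 76.0% of the gene in each library, has its annotated start (chr10:62899118) outside the Tet1 window. The promoter at that start was not searched. The letters were chosen after the expression values were known, and a match describes the sequence and not binding. The most upstream Dnmt1 window held 5 matches. Matches at the starts of Uhrf1 and Tet3 and between the downstream starts of Dnmt1 are shown, since these are the letters NF-Y is known to bind, with CCAAT or ATTGG in capitals, 5′ to 3′ on the strand of the gene, for the downstream start of Uhrf1 (150 and 107 bases before it, chr17:56304153-56304177 and chr17:56304196-56304220, plus strand), for its upstream start (30 bases before it, chr17:56303297-56303321), for Dnmt1 (between a pair of annotated starts, chr9:20952845-20952869, minus strand) and for Tet3 (31 bases before the start, chr6:83441695-83441719, minus strand).
Uhrf1 downstream start, first match: gtcatctaggCCAATcgcatgcgag
Uhrf1 downstream start, second match: ccgggaggagCCAATcagcagcgag
Uhrf1 upstream start: acagcgccagCCAATcaggaatcaa
Dnmt1: ccgccccctcCCAATtggtttccgc
Tet3: cgggcgcgggATTGGctggcgcgcg
Both starts of Uhrf1 thus had CCAAT on the strand of the gene, and at Dnmt1 the capitals and the letters that follow read the same on both strands and were counted as 2 overlapping matches.

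S-phase genes are known for E2F sites, and the words TTTCCCGC, TTTGGCGC, TTTCGCGC and TTTGCCGC were searched on both strands as well. They stood in 3 of the 14 windows, those of Dnmt1, Uhrf1 and Hells, against 2.26% of all promoter windows. None stood in the windows of the other 6 genes, nor in the window at the upstream start of Uhrf1. The Dnmt1 window at the start of its 5370-nt and 5367-nt transcripts held none either. The start of the 14082-nt Tet1 transcript was again not searched. The start annotated for the 3019-nt Hells transcript (chr19:38930915) lies upstream of the Hells word. The most downstream Dnmt1 window held 2 matches, and 1 match per gene is shown with the word in capitals, for Hells (62 bases before the RefSeq start of its window, chr19:38930920-38930944, plus strand), for the downstream start of Uhrf1 (185 bases before it, chr17:56304120-56304144, plus strand) and for Dnmt1 on the complementary strand (chr9:20952826-20952850, minus strand).
Hells: caccgggtTTTCCCGCgaaagagaa
Uhrf1: gagtcgggTTTCGCGCgcccaggcg
Dnmt1: ttccgcgcGCGCGAAAaagccgggg
The genes with such a word were the 3 called higher, and a link between word and rise was not tested. These words, too, were chosen with the values known, and no test was made. In CpG content 13 of the 14 windows exceeded the median of all promoters (7 CpG), with 57 CpG at Tet2, 46 and 47 at the upstream starts of Dnmt3a and 2 at the most upstream start of Dnmt1.

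Finally, the 3 genes with the most similar profile were taken for each gene, by the root mean square difference of centred log2 CPM over the 6 libraries, among genes with at least 10 CPM on average. Dnmt1 was nearest to Tacc3 (0.0291 log2 units), Cdc20 and Top2a, Uhrf1 to H2afx (0.0551), Cenpa and Timeless, and Hells to Slfn9 (0.0279), Mcm6 and Ccna2. Tacc3, Cdc20 and Cenpa are known for roles in mitosis and Mcm6 for one in DNA replication. Uhrf2 was nearest to Thap4 (0.0224), Ppp1cc and Avl9, Dnmt3b to Prr11 (0.0322), Sfpq and Nelfe, and Dnmt3a to App (0.0430), Pdpk1 and Lrsam1. Tet2 was nearest to Zfp521 (0.0625), Bnip3 and Leng8, Tet3 to Cyth1 (0.0694), Ssh1 and Tshz3, and Tet1 to Slc36a1 (0.0523), Atp11b and Rufy2. Likeness over 6 libraries in 2 groups mostly follows the difference between genotypes, and it is given as a description.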

How the data were processed

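RNA-seq was performed by the authors on SCs from 3 NF-YAcKO and 3 NF-YAfl/fl samples, grouped here by the genotype in their labels. The authors used bowtie2 for alignment to mm10 and RSEM for quantification, which divides a read among the transcripts it matches. The deposited values are expected counts (not normalized, whole for 7 of the 9 genes and not for Hells and Tet1), TPM (scaled by the authors' software to effective length and a constant sum, without depth) and, for transcripts, the percent of the gene's TPM.

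Expected counts were rounded. A gene or transcript needed over 10 counts in 2 libraries or more (17348 of 35976, and 45367 of 106521 passed) and was tested with edgeR 4.0.16 (TMM, quasi-likelihood test of genotype without covariates, Benjamini-Hochberg adjustment over all features tested). CPM are counts relative to the TMM-normalized library total. The SE is the log2 fold change divided by the square root of F. Shares and ratios were compared with exact two-sided permutation tests over libraries. Genes named in the text are the 9 genes, their transcripts with at least 10% of the gene's TPM, listed pathway genes with an FDR under 0.05 or else absent or prominent in their list, and the 3 nearest profiles. Tyms, Tdg and other pathway or marker genes that did not pass were named after their values were seen. The 9 genes and all lists were chosen with earlier results of these data known. The fit was tested on simulated data. Dnmt3c, a gene of one list, was not analysed here, and the results of 2 listed genes are not reported here.

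Depth was 26936230 to 41118984 expected counts per library, and Dnmt3b and Tet1 had the fewest counts of the 9 genes. Results were recomputed with DESeq2 1.42.0, with DESeq2 size factors for edgeR, no filter, filterByExpr, limma 3.58.1 on log2(TPM + 1) and log2(TPM + 0.1), unrounded counts, the replicate number as a block, shares from CPM, and each library left out. Software was R 4.3.3, Python 3.11.15 and matplotlib 3.10.9.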

Additional observations from a re-analysis of the deposited data

How the results depend on the processing

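Over 14 alternative settings none of the 9 genes changed direction. Dnmt1, Uhrf1, Hells and Tet2 had an FDR under 0.05 in all 14, Tet3 in 12, Uhrf2 in 10, Dnmt3b in 7, Dnmt3a in 1 (DESeq2, FDR 0.0470) and Tet1 in 0. With limma on log2(TPM + 1) and on log2(TPM + 0.1), 3 of the 9 genes rose in either case, 0 and 1 were called higher under the stricter thresholds, and 1547 and 1623 of all genes rose in place of 3418. Calls over all genes were 806 higher and 1331 lower, against 231 and 704 with limma on log2(TPM + 1), 361 and 1067 on log2(TPM + 0.1), and 177 and 523 without NF-YAcKO replicate 2. With one library left out, the 9 genes gave 3 to 5 risen, 1 to 2 fallen, 0 to 3 called higher and 0 to 1 called lower, all genes gave 1739 to 4456 risen and 1981 to 4088 fallen, and transcripts gave 0 to 7 risen and 0 to 2 fallen. Transcripts risen were 10 with DESeq2 and 3 with limma, and transcripts fallen were 0 with no filter. The difference of Hells from the S-phase genes turned from -0.023 to 0.036 when taken from CPM and ranged from -0.086 to 0.059 with one library left out, and 0.059 was the value without NF-YAfl/fl replicate 2. The cause was not tested.

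The labels do not say whether libraries with the same number were paired. The correlations of their deviations were 0.165, -0.0693 and 0.0527 for replicates 1, 2 and 3. Between libraries of unlike number and genotype they ran from -0.138 to 0.0987. With so few libraries these values cannot decide whether there was a pairing. With the replicate number as a block, 625 genes were called higher and 947 lower, transcripts risen and fallen were 0 and 0, and among the 9 genes the call of Dnmt3b was lost (log2 fold change 0.79, FDR 0.0791) while the other 6 kept theirs.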
